A study of Mus musculus with 6 samples.

Results

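Interferon response genes are the transcripts that cells raise after interferon reaches its receptors. A set of 36 of them was followed in the mouse hypothalamus, named for their known place in this response. It was chosen with earlier results of these data known, so the set as a whole was given no test. All 36 had at least 1 probe that could be tested, among 22863 genes tested in all. They fall into 2 sensors of viral RNA, 5 signalling genes, 17 effectors, 6 GTPases and 6 genes of antigen presentation. Male C57BL/6J mice, 16 weeks old, gave the hypothalamic RNA, which was read on 6 one-colour arrays, 2 per genotype. TrspFF mice, the controls, carry loxP-flanked alleles of Trsp and no Cre. Trsp encodes the transfer RNA that brings selenocysteine into selenoproteins, among them enzymes that remove peroxides. Trsp-RIPKO mice carry the same alleles with RIP-Cre and Trsp-Ins1KO mice carry them with Ins1-Cre, so all 3 groups share the floxed alleles. RIP-Cre uses a rat insulin promoter, which is active in pancreatic beta cells and also in part of the hypothalamus, while Ins1-Cre is placed at the Ins1 gene of beta cells. Mice with a Cre but without floxed alleles were not analysed here. The series asks, by its title and design, what oxidative stress after loss of Trsp does in the hypothalamus.

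In this pathway, cytosolic sensors such as MDA5 bind viral RNA and start the production of type I interferon. Type I interferon acts through its receptors and JAK kinases on a complex with STAT2 and IRF9 that binds the interferon-stimulated response element (ISRE) in target promoters, while interferon gamma acts at gamma-activated sites (GAS). The targets include antiviral effectors, large GTPases that attack pathogens in vacuoles, and the machinery that loads peptides on MHC class I. In the brain, microglia, endothelial cells, astrocytes and neurons can all respond, and a low basal expression of many targets is usual in tissue without infection.

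The 75th percentile of the processed signal lay between 1391 and 2137 on the 6 arrays, 68.9% to 72.0% of probes were well above background, and 0 probes were saturated. A level here is the log2 processed signal of a probe minus the log2 75th percentile of its array, so levels are compared between arrays for 1 gene and not between genes. Of 45 probes of the members, 43 were kept, which means that the scanner software put them well above background on each array of 1 genotype or more, and the brightest kept probe stands for its gene. The 10 hypothalamic markers listed for a check of the tissue, among them Pomc, Agrp, Avp and Oxt, were all tested. Sim1 was well above background on 2 TrspFF arrays, 0 Trsp-RIPKO arrays and 1 Trsp-Ins1KO array. No probe carried the name Trsp, so these arrays do not check the deletion. The labels do not say whether the 2 arrays of a genotype came from separate animals, so p-values here rest on array-to-array spread that can be technical. Both TrspFF arrays sat on 1 slide and scan and all 4 knockout arrays on another, so slide and genotype cannot be told apart against TrspFF. The deposited value table exchanges the knockouts: its columns labelled Trsp-RIPKO matched the scanner files labelled Trsp-Ins1KO at r of at least 0.99997 across probes, and the reverse, whereas against the files of their own label r was -0.22 and -0.20. Genotypes here follow the scanner files. Under the names of the value table, each value given for 1 knockout against TrspFF belongs to the other, and every difference between the knockouts changes sign.

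Because many targets of this pathway carry the same short elements, the promoters were searched first. RefSeq promoter windows (build GRCm38.p6, 250 bases before to 50 bases after the start site) were held for 28 of the 36 members. Those without one are Dhx58, Usp18, Oas2, Ifi27, Rtp4, Parp14, Ly6e and Iigp1. The ISRE core GAAANNGAAA, on either strand, was present for 14 of these 28 genes (50%), against 3.99% of all 27025 genes with a window and 3.44% of all 32851 windows. It was found for all 5 GTPases with a window, 6 of 12 effectors, 1 of 4 signalling genes, 1 of 6 genes of antigen presentation and the sensor Ifih1, whose match starts at position 33 after the start site. The GAS core TTCNNNGAA, which can overlap an ISRE match, was present for 8 of 28 (28.6%) against 9.55% of all genes. Shown here are the windows of 5 effectors and GTPases whose arrays are described in full further on, and of B2m, the 1 gene of antigen presentation that holds the core. They run 5′ to 3′ on the strand of the gene, and capitals mark the ISRE core or its reverse complement.
Isg15 (chr4:156200855-156200916, minus strand): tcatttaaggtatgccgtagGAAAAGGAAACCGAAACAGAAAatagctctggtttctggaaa
Ifit3 (chr19:34583353-34583402, plus strand): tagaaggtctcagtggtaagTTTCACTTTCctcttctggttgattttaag
Rsad2 (chr12:26456543-26456592, minus strand): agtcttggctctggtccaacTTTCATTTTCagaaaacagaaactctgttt
Gbp3 (chr3:142559979-142560034, plus strand): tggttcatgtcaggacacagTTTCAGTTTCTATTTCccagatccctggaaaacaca
Igtp (chr11:58199502-58199551, plus strand): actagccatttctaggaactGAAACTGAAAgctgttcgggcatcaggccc
B2m (chr2:122147528-122147577, plus strand): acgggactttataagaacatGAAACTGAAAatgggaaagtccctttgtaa
In Isg15 the capitals join 3 overlapping matches, which begin 78, 72 and 66 bases before the start site, and in Gbp3 they join 2, which begin 45 and 39 bases before it. The printed Ifit3 match begins 156 bases before the start site, and a second one, at 122 bases before it, lies outside the window shown. Igtp also has a GAS match, beginning 45 bases before the start site. A match says that these letters are present and not that a factor binds there.

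Across the 6 arrays the members moved largely together, and Trsp-RIPKO replicate 2 had the highest level for 32 of 36 of them. The exceptions are Ifi27, highest on Trsp-RIPKO replicate 1, Dhx58 and Iigp1, highest on TrspFF replicate 2, and H2-D1, highest on Trsp-Ins1KO replicate 2. The lowest level fell on Trsp-Ins1KO replicate 2 for 13 members, on Trsp-Ins1KO replicate 1 for 9, on TrspFF replicate 1 for 9 and on TrspFF replicate 2 for 5. For each member the deviation from its mean over the 6 arrays was taken, and the median deviation (log2) was -0.23 and 0.07 on the TrspFF arrays, 0.19 and 0.52 on the Trsp-RIPKO arrays and -0.28 and -0.38 on the Trsp-Ins1KO arrays. Replicates of 1 genotype therefore differed too. TrspFF replicate 2 exceeded TrspFF replicate 1 for 26 of 36 members by a median of 0.35 (44.6% of all genes, median -0.03), and Trsp-RIPKO replicate 2 exceeded replicate 1 for 34 of 36 by a median of 0.28 (47.0% of all genes, median -0.01). TrspFF replicate 1 and the Trsp-Ins1KO arrays were close, with median differences of -0.02 and -0.03 and 17 of 36 members higher on each Trsp-Ins1KO array.

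**Figure D1:**
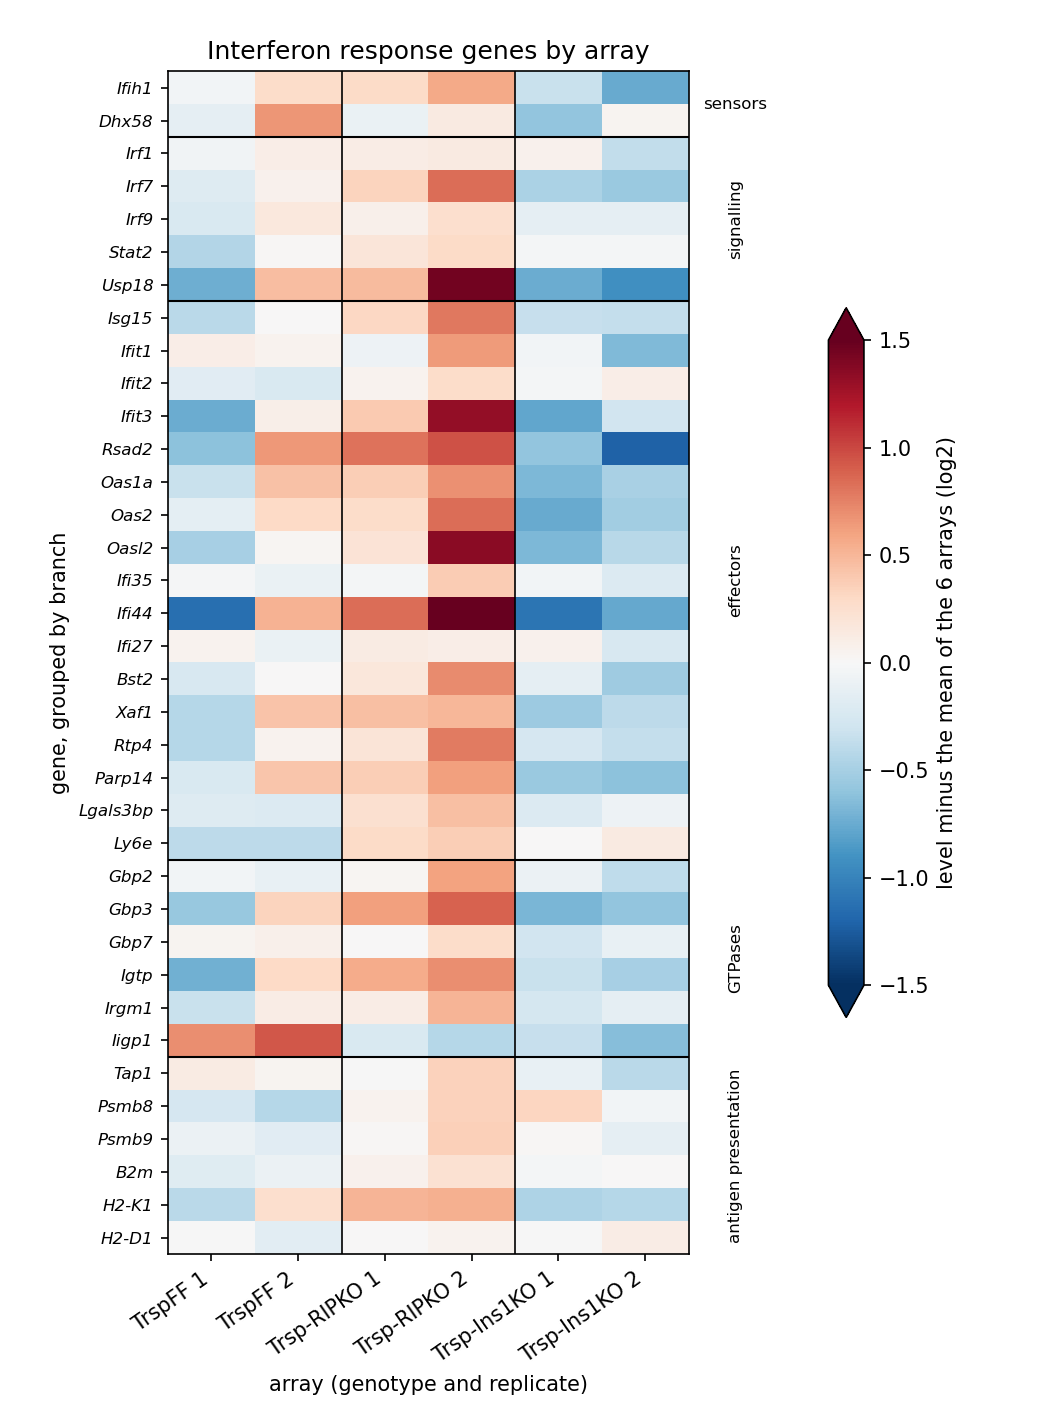
Level of each of the 36 interferon response genes on each of the 6 arrays minus the mean of that gene over the arrays (log2, colour, clipped at ±1.5), with genes in rows grouped by branch and arrays in columns by genotype and replicate. Trsp-RIPKO replicate 2 is the highest array for 32 of 36 genes, and Iigp1 is highest on the TrspFF arrays.

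Against TrspFF, interferon response genes were mostly higher on the Trsp-RIPKO arrays: 34 of 36 differences were positive, with a median of 0.46 (log2) against -0.01 over all genes. Ly6e, a small surface protein induced by interferon, rose, and Iigp1, an immunity-related GTPase, fell. No other member passed the test (limma, Benjamini-Hochberg over all genes, adjusted p under 0.05), whose background over all genes was 0.0962% higher and 1.56% lower. At an unadjusted p under 0.05, 12 members were higher and 1 lower, where 9.71% of all genes were higher and 14.2% lower. Both Trsp-RIPKO arrays lay above both TrspFF arrays for 26 members (28.0% of all genes) and below them for 1 (30.2% of all genes). Without Trsp-RIPKO replicate 2, 31 differences were positive and 5 negative. The median was 0.26 without TrspFF replicate 1, 0.66 without TrspFF replicate 2, and, with 1 Trsp-RIPKO array, 0.61 (replicate 2 alone) or 0.28 (replicate 1 alone). The calls of Ly6e and Iigp1 were lost on leaving out any of the 6 arrays. Each such fit left 1 array in a group, and its calls over all genes changed too.

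Between Trsp-Ins1KO and TrspFF the members leaned the other way by less: 28 of 36 differences were negative and 8 positive, with a median of -0.21 against 0.02 over all genes. With Ifi44, which reached the well-above-background flag on neither Trsp-Ins1KO array, set to its bound, the median also rounds to -0.21. Iigp1 fell, and 0 members rose (limma, same threshold; 1.58% and 0.241% of all genes). At an unadjusted p under 0.05, 2 members were higher (13.3% of all genes) and 4 lower (12.6%). The Trsp-Ins1KO arrays both lay below both TrspFF arrays for 12 members (26.4% of all genes) and above them for 5 (31.7%), so the first count is near its background share and the second below it. Without TrspFF replicate 1 the median was -0.36 and without TrspFF replicate 2 it was -0.06. The call of Iigp1 was lost on leaving out any of the 6 arrays, which each time left 1 array in a group. Both comparisons use the same TrspFF arrays.

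The direct comparison of the knockouts, on arrays of 1 slide and scan, gave the most uniform direction. Levels were higher on the Trsp-RIPKO arrays for 35 of 36 members, with H2-D1 at -0.02, and the median difference was 0.59 against -0.05 over all genes, also with Ifi44 at its bound. None passed the test: limma called 0 members in either direction, and over all genes 0% were higher and 0.0175% lower. At an unadjusted p under 0.05, 20 members were higher and 0 lower, against 7.62% and 10.8% of all genes. Both Trsp-RIPKO arrays lay above both Trsp-Ins1KO arrays for 30 of 36 members (22.9% of all genes) and below them for 0 (35.8%). Leaving out Trsp-RIPKO replicate 1 gave a median of 0.91 and leaving out Trsp-RIPKO replicate 2 gave 0.35. In a fit of these 2 genotypes alone, Xaf1, Gbp3 and H2-K1 passed at limma adjusted p of 0.0499, 0.0424 and 0.0365. That fit called 163 genes higher and 156 lower of the 22863 tested. Under the other alternatives that keep 2 arrays per genotype, the smallest limma adjusted p of any member was 0.195 to 0.42.

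**Figure D2:**
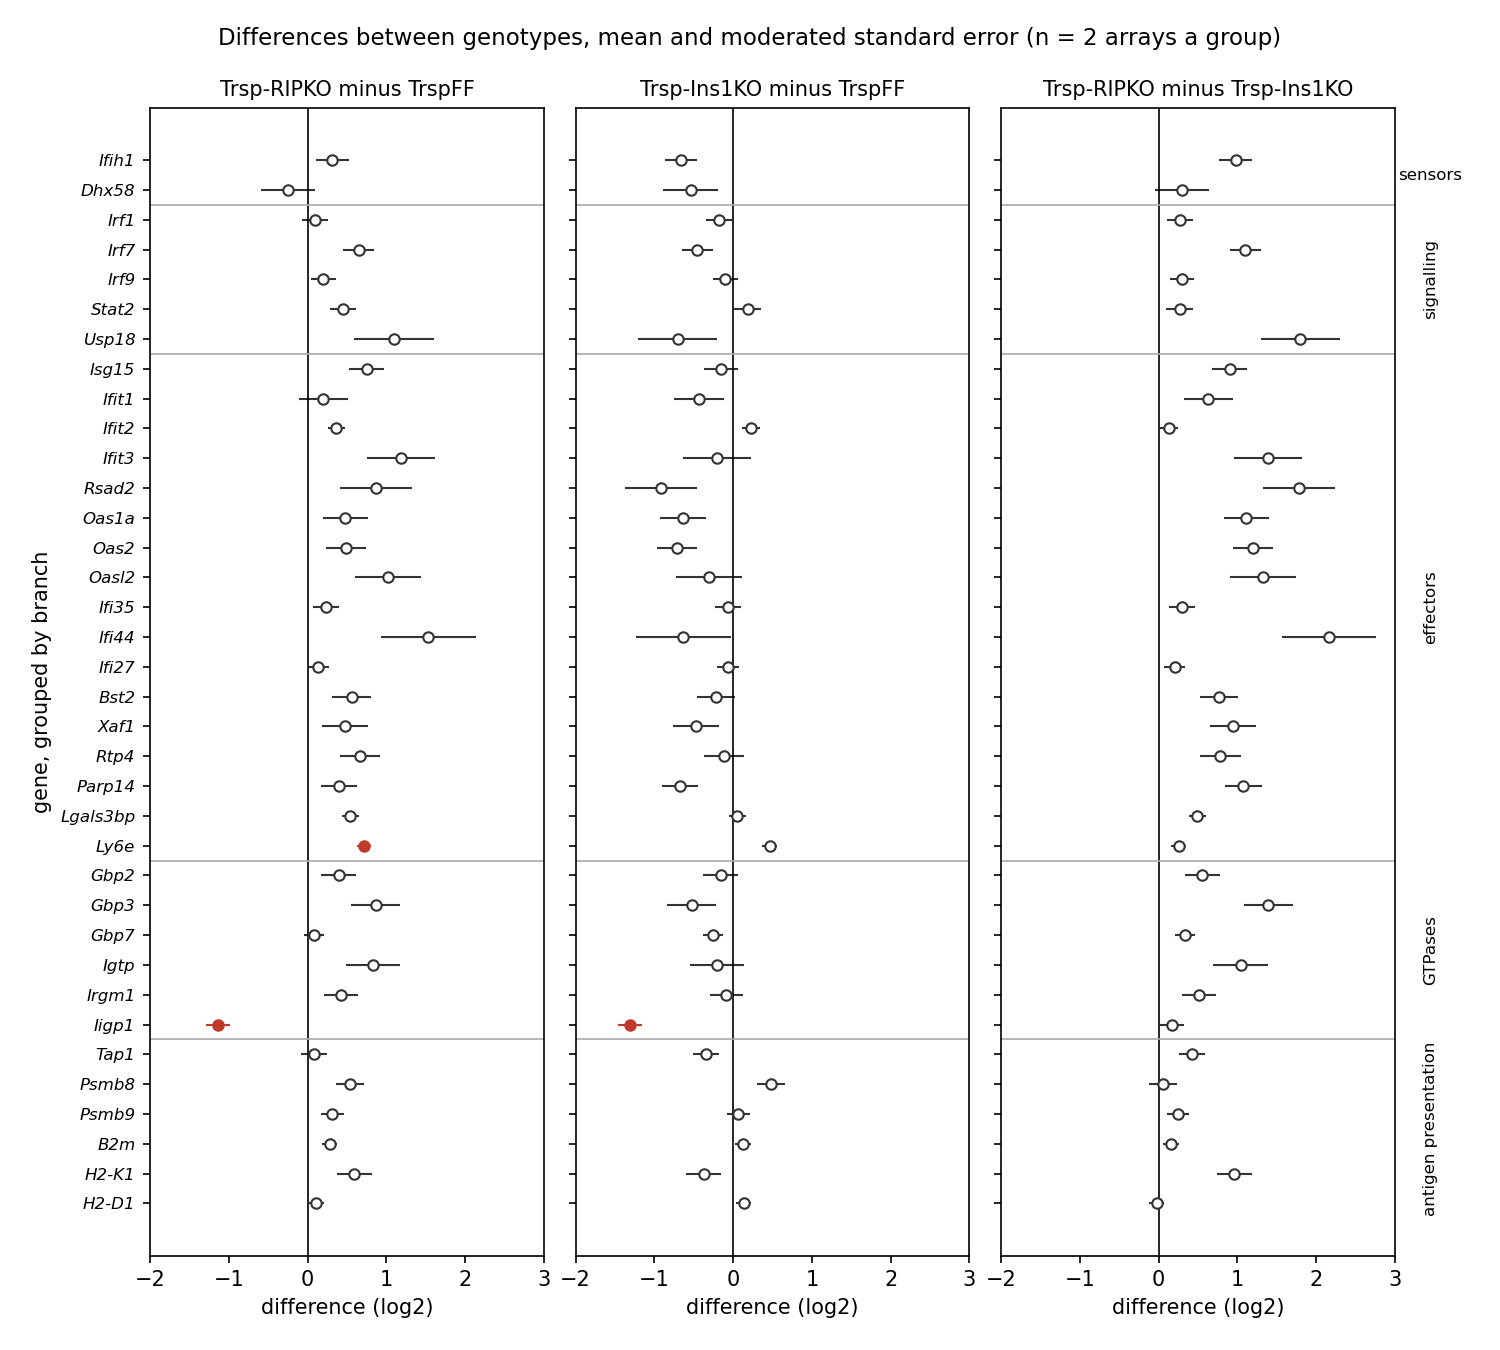
Difference of each member between genotypes (log2, horizontal axis) with its moderated standard error, 2 arrays per group, in 3 panels for the 3 comparisons; filled red points passed limma's test at an adjusted p under 0.05. Ly6e and Iigp1 are filled for Trsp-RIPKO against TrspFF, and Iigp1 alone for Trsp-Ins1KO against TrspFF. No point is filled between the knockouts, although 35 of 36 differences lie above 0 there.

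Of the sensors, Ifih1 encodes MDA5, which detects long double-stranded RNA, and Dhx58 encodes LGP2, which tunes it. Ifih1 was at -3.18 and -2.86 on the TrspFF arrays, -2.85 and -2.57 on the Trsp-RIPKO arrays and -3.48 and -3.89 on the Trsp-Ins1KO arrays. All 3 genotypes were separated, in the order Trsp-RIPKO, TrspFF, Trsp-Ins1KO, with the lower Trsp-RIPKO array just above the higher TrspFF array. The differences were 0.32 against TrspFF for Trsp-RIPKO (SE 0.20, adjusted p = 0.392) and -0.66 for Trsp-Ins1KO (adjusted p = 0.141), and 0.98 between the knockouts (adjusted p = 0.263). Dhx58, at -4.24 and -3.44, -4.20 and -3.97, and -4.70 and -4.06 in the same order of genotypes, overlapped in every comparison and had the negative difference of -0.25 between Trsp-RIPKO and TrspFF.

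Among the signalling genes, Usp18, the protease that removes ISG15 and damps the receptor, showed the largest differences. Its levels were -4.71 and -3.52 (TrspFF), -3.50 and -2.53 (Trsp-RIPKO) and -4.73 and -4.90 (Trsp-Ins1KO). The genotypes did not overlap, but the TrspFF arrays differed by more than 1 log2 unit and the higher of them nearly reached the lower Trsp-RIPKO array. Between the knockouts the difference was 1.80 (SE 0.50, adjusted p = 0.263), or 3.47-fold. Irf7, the factor that amplifies type I interferon production, had levels of -5.79 and -5.52 (TrspFF), -5.26 and -4.76 (Trsp-RIPKO) and -6.07 and -6.15 (Trsp-Ins1KO), where it was well above background on 1 of 2 arrays. It too was separated in all 3 comparisons, with differences of 0.65 (adjusted p = 0.153), -0.45 (adjusted p = 0.229) and 1.10 (adjusted p = 0.263). Stat2 and Irf9, partners in the ISRE-binding complex, and Irf1, an activator downstream of interferon gamma, differed by 0.27 to 0.30 between the knockouts. All 5 signalling genes had both Trsp-RIPKO arrays above both Trsp-Ins1KO arrays, as did 22.9% of all genes.

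The effectors had all 17 differences positive between Trsp-RIPKO and TrspFF (median 0.54) and between the knockouts (median 0.90), and 14 of 17 negative between Trsp-Ins1KO and TrspFF (median -0.21). Ifi44, an interferon-induced protein of microtubule-like aggregates, was at -6.96 and -5.31 (TrspFF), -4.99 and -4.20 (Trsp-RIPKO) and -6.93 and -6.60 (Trsp-Ins1KO). It was well above background on both Trsp-RIPKO arrays, on 1 TrspFF array and on no Trsp-Ins1KO array. It was therefore kept through Trsp-RIPKO alone, the genotype where it was highest, and its direction is not independent of the filter. As a bound, Ifi44 was at least 3.24-fold higher in Trsp-RIPKO than in Trsp-Ins1KO. Such a bound sets the arrays below background to their faintest signals called well above it, and the adjusted p of 0.263 belongs to the fitted difference of 2.17. Rsad2, which encodes the antiviral enzyme viperin, was at -5.01 and -3.75, -3.59 and -3.45, and -4.99 and -5.61 in the order TrspFF, Trsp-RIPKO, Trsp-Ins1KO. Both Trsp-RIPKO arrays were above all others, and TrspFF replicate 1 lay among the Trsp-Ins1KO arrays (difference between the knockouts 1.78, SE 0.46, adjusted p = 0.263).

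Isg15, the ubiquitin-like protein that is attached to other proteins after interferon, was at -1.08 and -0.66 (TrspFF), -0.37 and 0.12 (Trsp-RIPKO) and -1.02 and -1.03 (Trsp-Ins1KO). Its Trsp-RIPKO arrays were above all others and its Trsp-Ins1KO arrays fell within the range of TrspFF. The difference was 0.75 against TrspFF (SE 0.22, adjusted p = 0.145) and 0.90 between the knockouts (adjusted p = 0.263). Ifit3, one of the proteins that bind foreign RNA ends, was at -1.72 and -0.88, -0.57 and 0.35, and -1.74 and -1.26 in the same order. Here again the Trsp-RIPKO arrays were the highest pair, with a difference of 1.18 from TrspFF (SE 0.43, adjusted p = 0.196) and 1.39 between the knockouts. Its neighbour Ifit2, with 0 coding genes between them, had a difference of 0.14 between the knockouts and overlapping arrays, and Ifit1 had 0.63 and overlapped as well.

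The oligoadenylate synthetase genes Oas1a and Oas2, whose products activate RNase L, had differences between the knockouts of 1.11 and 1.20, and their relative Oasl2 had 1.32. Oasl2 varied most within Trsp-RIPKO, at -2.45 and -1.30 there, beside -3.15 and -2.63 in TrspFF and -3.32 and -3.07 in Trsp-Ins1KO. Parp14, Xaf1, Rtp4 and Bst2 (tetherin, which holds budding virus at the cell surface) had differences of 1.07, 0.95, 0.79 and 0.77 between the knockouts, each without overlap. Smaller differences between the knockouts were 0.30 for Ifi35 and 0.20 for Ifi27, also without overlap.

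Ly6e and Lgals3bp had the smallest standard errors of the effectors. Ly6e was at 2.16 and 2.17 (TrspFF), 2.84 and 2.92 (Trsp-RIPKO) and 2.56 and 2.70 (Trsp-Ins1KO), and both knockouts were above TrspFF. It rose by 0.72 in Trsp-RIPKO (SE 0.092, limma adjusted p = 0.0431), or 1.64-fold, and the difference of 0.46 in Trsp-Ins1KO did not pass (adjusted p = 0.0795). Lgals3bp, a secreted glycoprotein that binds galectins, was at 0.77 and 0.75, 1.20 and 1.40, and 0.75 and 0.88. It separated Trsp-RIPKO from both other genotypes, by 0.54 from TrspFF (SE 0.11, adjusted p = 0.0845) and 0.49 from Trsp-Ins1KO.

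The GTPases comprise guanylate-binding proteins (Gbp2, Gbp3, Gbp7) and immunity-related GTPases (Igtp, Irgm1, Iigp1), which act on membranes around intracellular pathogens. Gbp3 was at -2.71 and -1.80 (TrspFF), -1.52 and -1.25 (Trsp-RIPKO) and -2.82 and -2.73 (Trsp-Ins1KO), with no overlap between any 2 genotypes. Its difference between the knockouts was 1.39 (SE 0.31, adjusted p = 0.263). Its neighbours had smaller ones, 0.34 for Gbp7, with 0 coding genes between, and 0.55 for Gbp2, with 1 between. Igtp was at -2.05 and -1.03, -0.78 and -0.64, and -1.66 and -1.83, so that the TrspFF arrays spanned both Trsp-Ins1KO arrays, and it differed by 1.04 between the knockouts. Without TrspFF replicate 2, Igtp and H2-K1 differed from TrspFF by 1.34 and 0.92 in Trsp-RIPKO.

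Iigp1 went the other way on its bright probe, at -1.32 and -1.08 (TrspFF), -2.24 and -2.44 (Trsp-RIPKO) and -2.37 and -2.65 (Trsp-Ins1KO). Both knockouts were below TrspFF, by 1.14 and 1.31 log2 units: it fell by 1.14 in Trsp-RIPKO (SE 0.15, limma adjusted p = 0.0495) and fell by 1.31 in Trsp-Ins1KO (adjusted p = 0.0366). A second, faint probe to the same transcript read -8.53 and -6.44, -6.24 and -5.71, and -7.34 and -8.81, and was well above background on the Trsp-RIPKO arrays alone. It was kept only through those arrays, where it is highest. On that probe Iigp1 was at least 1.23-fold higher in Trsp-RIPKO than in TrspFF, and the mean of both probes gave a difference of 0.19 in place of the fall. In Trsp-Ins1KO against TrspFF both probes were negative, at -1.31 and -0.59, and their mean gave -0.95 (adjusted p = 0.283). Thus the direction of Iigp1 in Trsp-RIPKO against TrspFF depends on the probe, and which probe reports the transcript was not tested.

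Of the antigen presentation genes, H2-K1, a classical MHC class I heavy chain, was at 0.55 and 1.20 (TrspFF), 1.45 and 1.47 (Trsp-RIPKO) and 0.48 and 0.52 (Trsp-Ins1KO). The knockout arrays agreed closely within each genotype and the TrspFF arrays lay between them, far apart. Its difference between the knockouts was 0.96 (SE 0.22, adjusted p = 0.263), whereas its relative H2-D1 showed -0.02 and B2m, the light chain shared by class I molecules, showed 0.16. Cross-hybridisation among the closely related class I genes, or among relatives of Oas1a and the Gbp genes, was not tested. Psmb9 and Psmb8, subunits of the immunoproteasome, flank Tap1, a subunit of the peptide transporter, with 0 coding genes between each pair. Despite that, Tap1 differed from TrspFF by 0.08 in Trsp-RIPKO and -0.34 in Trsp-Ins1KO, while Psmb8 differed by 0.54 and 0.48, with both knockouts above TrspFF. Tap1 was well above background on 5 of 6 arrays. The branch as a whole had the smallest median difference between the knockouts, 0.20, and 4 of its 6 differences were positive in Trsp-Ins1KO against TrspFF, where 0 of 6 GTPases were.

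Second probes were available for 7 members, and for Isg15, Oas1a, Lgals3bp, Irgm1 and H2-K1 they gave differences between the knockouts of the same sign and 0.50 to 1.25 in size. The second Isg15 probe read 1.25 beside 0.90, the second H2-K1 probe 1.06 beside 0.96 and the second Lgals3bp probe 0.50 beside 0.49. Against TrspFF the second Irgm1 probe differed in sign in Trsp-Ins1KO, at 0.14 beside -0.09, as did the second Lgals3bp probe, at -0.02 beside 0.05. The probes of Irf1 and Iigp1 also agreed in sign between the knockouts, but in Trsp-RIPKO against TrspFF their signs differed. Between the knockouts the second probes gave fitted differences of 2.06 beside 0.27 and 2.10 beside 0.17. Both second probes were well above background on 0 Trsp-Ins1KO arrays. As a bound, the second Iigp1 probe was at least 1.25-fold higher in Trsp-RIPKO than in Trsp-Ins1KO, and for Irf1 no bound could be given. The second Irf1 probe, to another transcript of the gene, was at -4.61 and -5.24 (TrspFF), -4.17 and -8.91 (Trsp-RIPKO) and -8.35 and -8.85 (Trsp-Ins1KO). That is a spread of more than 4 log2 units within Trsp-RIPKO, while the bright probe stayed between -1.32 and -0.82 on all arrays. The second Irf1 probe was well above background on 2 TrspFF arrays, 1 Trsp-RIPKO array and 0 Trsp-Ins1KO arrays. It was kept only through TrspFF, and readings not well above background do not measure the size of a difference.

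**Figure D3:**
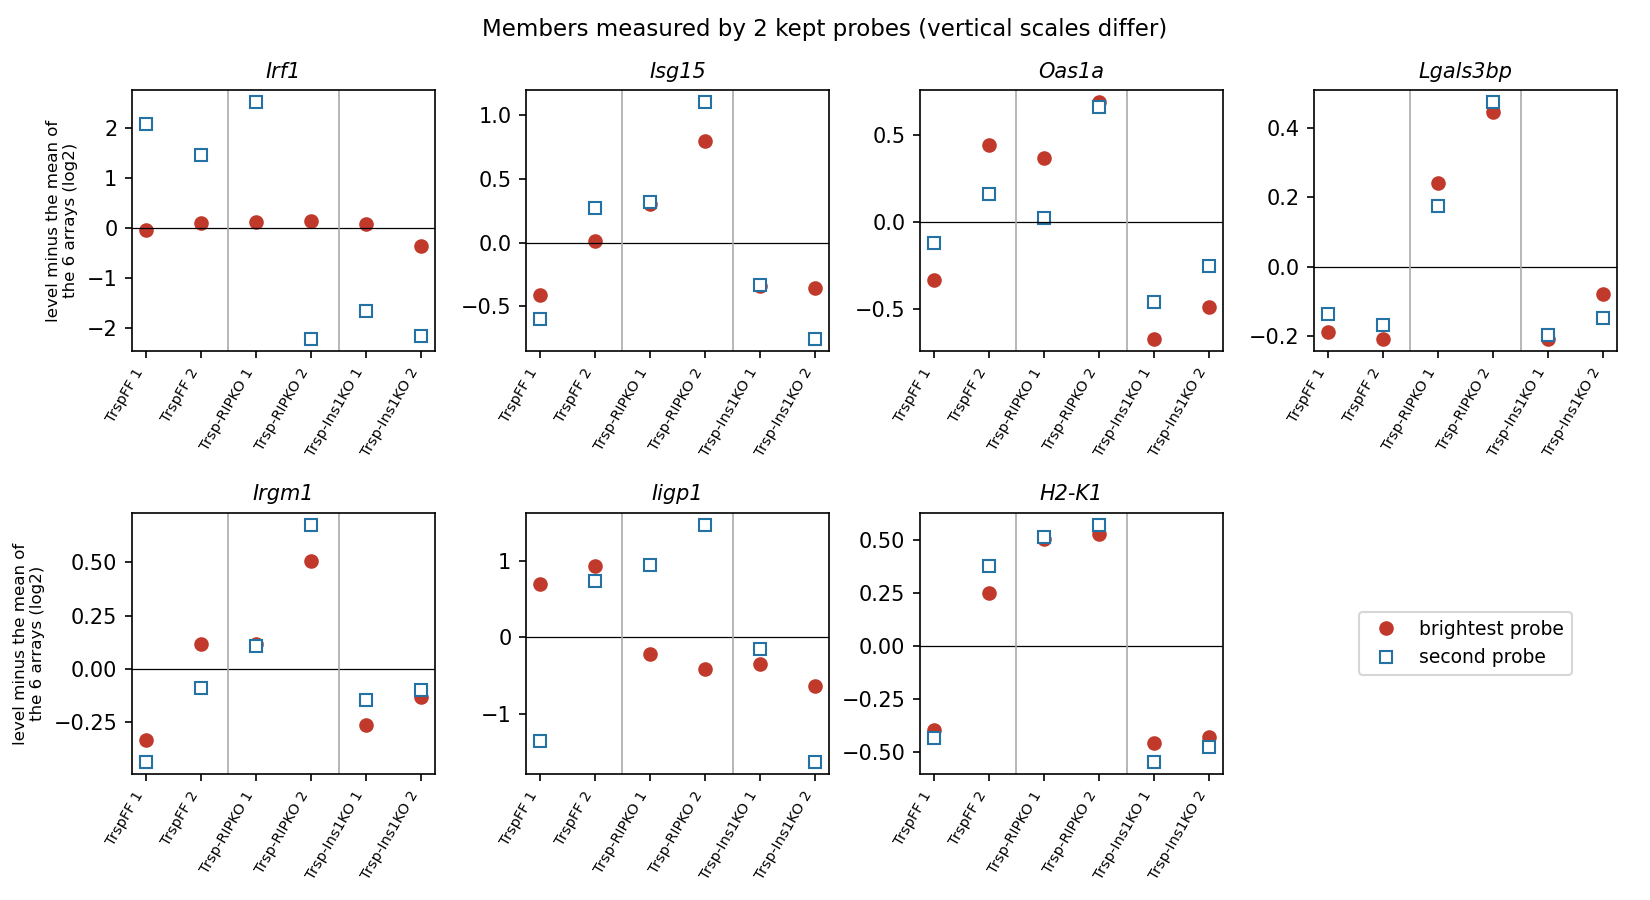
The 7 members with 2 kept probes, each probe shown as its level on each array minus its own mean over the 6 arrays (log2; vertical scales differ between panels), filled red for the brightest probe and open blue for the second. The second probes of Irf1 and Iigp1 span a far wider range than the brightest ones, and in Trsp-RIPKO against TrspFF their differences have the opposite sign. Both of these second probes include arrays where they were not well above background.

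Members with the ISRE core differed by a median of 0.84 between the knockouts and the 14 with a window but no core by 0.36, with 14 of 14 and 13 of 14 positive. Against TrspFF the medians were alike in Trsp-RIPKO, 0.46 and 0.42, and were -0.21 and -0.14 in Trsp-Ins1KO. These are descriptions of the printed motif and were not tested.

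A list of 135 other genes of the interferon system, of which 110 were tested, placed the members in their pathway. Between the knockouts 70 of 110 were positive (median 0.08); limma called 0, with 29 higher and 2 lower at an unadjusted p under 0.05, where 7.62% and 10.8% of all genes were. Differences between roles were not tested. Of 17 listed interferon genes 8 were tested, and Ifnb1 and Ifng were not among them. Of these 8, 7 were negative in each knockout against TrspFF, and limma called 0. At an unadjusted p under 0.05, 1 was lower in Trsp-RIPKO and 0 in Trsp-Ins1KO (14.2% and 12.6% of all genes). TrspFF replicate 1 was the highest array for 7 of these 8 genes, and without it 7 were negative in Trsp-RIPKO and 4 in Trsp-Ins1KO. Ifna11, an interferon alpha gene, differed by -1.28 in Trsp-RIPKO (adjusted p = 0.11), where it was well above background on 1 of 2 arrays. Receptors and JAK-STAT genes, 16 of 16 tested, had a median of -0.02 between the knockouts.

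Other effectors (33 tested) and other GTPases (11 tested) had medians of 0.38 and 0.76 between the knockouts, with 28 and 9 positive. The chemokine gene Cxcl10 was at -4.71 and -4.33 (TrspFF), -3.74 and -3.13 (Trsp-RIPKO) and -4.90 and -4.80 (Trsp-Ins1KO), a difference of 1.41 between the knockouts (adjusted p = 0.263). Slfn2 differed by 1.03 and the GTPase gene Irgm2 by 1.80. Nucleic acid sensing genes (21 tested) had a median of 0.08 and other antigen presentation genes (21 tested) -0.12. In that last list H2-Aa, an MHC class II chain, was at least 2.66-fold higher in Trsp-RIPKO than in Trsp-Ins1KO (adjusted p of the fitted difference 0.263). Ciita, the activator of MHC class II genes, was the 1 gene of the 110 to rise against TrspFF, at least 1.54-fold in Trsp-RIPKO and at least 1.5-fold in Trsp-Ins1KO (limma adjusted p of the fitted differences 0.0423 and 0.0464), a bound because neither TrspFF array measured it well above background. It was kept for the test only through the knockout arrays, where it is high, so its rise is not independent of the filter. Both calls of Ciita were lost on leaving out any 1 array.

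Markers of other cell types were read on the same arrays, because fewer cells of a type and less RNA per cell cannot be told apart in tissue RNA. The 11 endothelial markers, all tested, took the same order of genotypes as the members: their mean level was -0.61 and -0.31 on the TrspFF arrays, -0.21 and -0.16 on the Trsp-RIPKO arrays and -0.94 and -0.76 on the Trsp-Ins1KO arrays. Their median difference was 0.43 in Trsp-RIPKO and -0.30 in Trsp-Ins1KO against TrspFF, and 0.72 between the knockouts. Of the 11, 7 were higher in Trsp-RIPKO than in TrspFF, 0 were higher in Trsp-Ins1KO than in TrspFF, and 10 were higher in Trsp-RIPKO than in Trsp-Ins1KO, from 0.05 for Pecam1 to 1.61 for Tie1. Kdr went the other way between the knockouts, at -0.20, and with Pecam1, Esam and Flt1 was lower in Trsp-RIPKO than in TrspFF. Microglial markers, 12 of 12 tested, did not take that order, with median differences of -0.09, 0.23 and -0.21 in the 3 comparisons. Astrocyte, neuron and oligodendrocyte markers had medians of -0.17, 0.20 and 0.31 between the knockouts, and 9 of the 10 hypothalamic markers were lower in Trsp-RIPKO than in Trsp-Ins1KO (median -0.65; Npy, at 1.19, was the exception). Choroid plexus markers (10 of 10 tested) averaged -2.85 on Trsp-Ins1KO replicate 2 against -0.36 to 0.58 on the other 5 arrays, and meningeal markers (9 of 9 tested) -1.75 against -0.90 to -0.12. Of markers of circulating cells, 3 of 8 for T and NK cells, 1 of 4 for B cells (Cd79b) and 3 of 6 for neutrophils and monocytes could be tested. Cd79b took the members' order too, at 0.83, -0.56 and 1.40 in the 3 comparisons (limma adjusted p = 0.22, 0.338 and 0.263). It was well above background on 1 of 2 Trsp-Ins1KO arrays. Medians were -0.43, -0.41 and -0.12 for T and NK cells and -1.07, -0.06 and -0.92 for neutrophils and monocytes. They were -0.19, -0.17 and -0.05 for border macrophages (5 of 6 tested) and 0.22, 0.19 and -0.01 for red blood cells (4 of 6 tested). The part of these cell types in the members' differences was not tested.

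**Figure D4:**
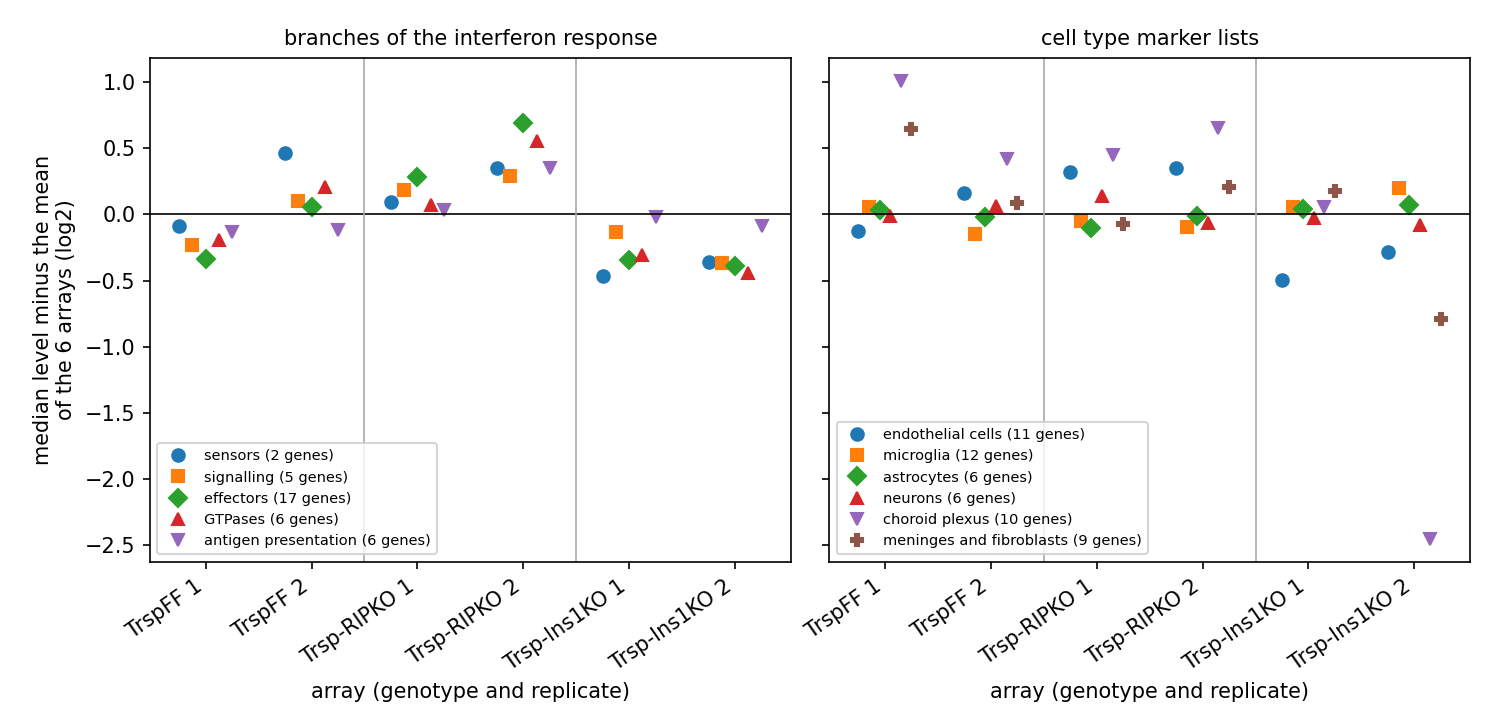
Median over the genes of each list of the level minus the gene's mean over the 6 arrays (log2, vertical axis) by array, for the 5 branches of the interferon response (left) and 6 cell type marker lists (right). Endothelial markers, signalling genes and effectors are highest on the 2 Trsp-RIPKO arrays, sensors are highest on TrspFF replicate 2 and antigen presentation genes are lowest on the TrspFF arrays. Choroid plexus markers drop to -2.45 on Trsp-Ins1KO replicate 2.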

How the data were processed

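Hypothalamic RNA of 6 mouse arrays (2 per genotype; total RNA labelled with Cy3 by a low-input kit, per the labels) was read by Agilent Feature Extraction 10.7.3.1, per the file headers. Each deposited scanner file gives a background-subtracted intensity per spot, and the array is annotated on build mm9. The deposited table of values is in log2, with the median of a probe over the arrays at 0; no source used here gives its scaling, and its column medians were 0.03, -0.01, 0.05, -0.01, -0.01 and -0.05. Its columns were matched to scanner files by value.

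From the scanner files, 43020 spots that are not controls gave 39429 probes after unflagged spots of a probe were averaged. The level is log2 of the processed signal minus the array's 75th percentile (log2). Of the probes, 28065 were usable on every array and well above background on each array of 1 genotype or more. Symbols came from transcript accessions through a RefSeq gene table (26055 of 39429 probes). The brightest kept probe stood for each of 22863 genes. limma 3.58.1 in R 4.3.3 (lmFit on 6 arrays, eBayes, 4.87 degrees of freedom) tested the 3 pairs of genotypes, with Benjamini-Hochberg adjustment over all genes and a threshold of 0.05. Errors of differences are moderated standard errors, and n is 2 arrays per group. The fit was tested on simulated data with known changes. The number of arrays limits the precision: an exact permutation test of 2 against 2 cannot go below a two-sided p of 0.333, so none was used.

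The members, the pathway and marker lists and the tests were chosen with earlier results of these data known. Named genes are all members, pathway genes past the threshold or otherwise the 3 of a list with the smallest p, and marker genes by level. Replicate numbers are shared between genotypes, but same-numbered arrays did not deviate together (r across genes -0.03, 0.09 and -0.02), so no block was used. Alternatives were normexp background correction (offset 50), quantile and median scaling, the value table, other filters, the mean of probes, a fit of 2 genotypes, trended and robust eBayes, a replicate block and leaving out each array. Promoters were searched in RefSeq windows.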

Additional observations from a re-analysis of the deposited data

Results flagged for a closer look

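For 5 of 36 members, both Trsp-RIPKO arrays lay above and both Trsp-Ins1KO arrays below both TrspFF arrays, a pattern that 1.65% of all genes showed; 0 members and 2.24% of all genes showed its mirror image. The choice of these genes fixes the sign of their difference between the knockouts, and whether they differ from TrspFF in opposite directions was not tested. The difference between the knockouts was 0.98 for Ifih1, 1.10 for Irf7, 1.80 for Usp18, 1.39 for Gbp3 and 0.96 for H2-K1, and none passed there (limma, adjusted p = 0.263 for each, n = 2 arrays per group) or against TrspFF. For Usp18 TrspFF replicate 1, at -4.71, and Trsp-Ins1KO replicate 1, at -4.73, were almost level. The 4 knockout arrays shared a slide and scan, apart from the TrspFF arrays. With the names of the value table the signs are exchanged.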

How the results depend on the processing

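The sign of the difference was kept under all 16 alternatives by 30 of 36 members in Trsp-RIPKO against TrspFF, 23 in Trsp-Ins1KO against TrspFF and 33 between the knockouts, and the sign of the members' median was kept in every one of the 3 comparisons; the cause of the changes below was not tested. In Trsp-RIPKO against TrspFF, 2 members were called, and trend and robust added Lgals3bp (limma adjusted p = 0.0462). With quantile scaling 1 was called (Ly6e), as with the mean of the probes (where Iigp1 turned to 0.19). With median scaling, no filter, only the 2 genotypes or the replicate block, 0 were called. Over all genes, limma called 192 higher and 592 lower with trend and robust, and 16 and 208 with median scaling. With no filter, only the 2 genotypes or the replicate block it called 0 of all genes. In Trsp-Ins1KO against TrspFF, where 1 was called, 2 were with trend and robust (Ly6e added, limma adjusted p = 0.0367), and 0 with no filter, the mean of the probes, only the 2 genotypes or the replicate block. Over all genes limma called 563 higher and 677 lower there with trend and robust, 8 and 17 with no filter, and 53 and 363 with the mean of the probes. With only the 2 genotypes or the replicate block it called 0 of all genes. Median scaling moved the median of all genes there from 0.02 to 0.11, and 7 members in place of 12 then lay below TrspFF without overlap. The share of all genes without overlap under that scaling is not given here. Between the knockouts, 3 members and 3 pathway genes were called with only the 2 genotypes, where 163 of all genes were called higher and 156 lower. The members' median was 0.78 with the mean of the probes. The 1 pathway gene called against TrspFF (Ciita) became 0 with normexp, median scaling, no filter, the filter on all 6 arrays, trend and robust, the 2 genotypes or the replicate block. (In Trsp-Ins1KO against TrspFF trend and robust called 1 other, lower.) With the replicate block 0 members passed in any comparison; the replicate numbers do not pair the arrays. Leaving out each array in turn gave, for Trsp-RIPKO against TrspFF, 0 to 2 members called, a median of 0.26 to 0.66 and 0 to 1 pathway genes; for Trsp-Ins1KO against TrspFF, 0 members called, 12 to 26 members below without overlap, and 0 to 1 pathway genes; and between the knockouts, 0 to 3 members called, a median of 0.35 to 0.91 and 0 to 3 pathway genes. A fit without an array assumes that the lone array varies like the other groups. With 1 array left in a group, arrays lie apart without overlap more easily for any gene. The share of all genes without overlap in these fits is not given here, so the range of 12 to 26 members has no background to be set against. The ISRE core followed by T, a longer motif, was present in 0 member promoters and in 0.636% of all genes with a window. The core itself was present in 14 member promoters. Other bases after the core were not tested, so this 0 is no check of the 14. With 2 arrays per genotype, and faint signals for Irf7, Ifi44 and Tap1, small differences could not be resolved.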
